A study of Mus musculus with 58 samples.

Results

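Tuft cells sorted from mouse small-intestinal organoids were compared with whole organoids. The tuft cells were Dclk1+ cells of untreated organoids from Dclk1-GFP mice (2 libraries), and the whole organoids were the libraries labelled control organoids (2 libraries), so that 4 of the 58 samples of the series enter the main comparison. Both groups carry the ENR medium code in their short names and come from the small intestine of Bl/6 mice. The mouse line of the control organoids and the sex and age of the animals are not given in the labels. Nor is it given whether the libraries of a group came from separate cultures or animals, so the spread between libraries may be technical. The p-values rest on a spread shared over the 14 libraries of the sorted set, in 7 groups, and not on these 4 alone. The cells were chosen as Dclk1+ in a Dclk1-GFP line, so Dclk1 itself checks the sort and is not a finding. Lgr5+ cells sorted from untreated organoids of Lgr5-GFP mice and Lgr5-DTR mice (2 libraries each) served as a second comparison in which both sides were sorted. Dclk1+ cells from EGF-inhibited organoids of Dclk1-GFP mice (2 libraries) were tested against those of untreated organoids. RNA was measured by CEL-seq, which counts the 3′ ends of transcripts.

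Tuft cells are rare secretory cells of the gut epithelium with a brush of long microvilli at the apical surface. They sense luminal content through a pathway shared with taste cells, in which receptors coupled to G proteins activate phospholipase C, calcium leaves internal stores through inositol trisphosphate receptors, and calcium opens the cation channel Trpm5. In mice they release interleukin 25, which acts on type 2 innate lymphoid cells during worm infection, together with leukotrienes, prostaglandins and acetylcholine. The transcription factor Pou2f3 is required for their formation.

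Levels are given as counts per 1e6 counts of a library (CPM) after TMM scaling, which adjusts each library for differences in composition, and fold changes are log2 values of Dclk1+ cells over control organoids from edgeR's quasi-likelihood fit, with the Benjamini-Hochberg adjusted p over all genes tested. The Dclk1+ libraries held 668893 and 1180327 counts, and the control organoid libraries 3599554 and 3101891. Log2 levels of the replicate libraries correlated across genes with r = 0.794 in Dclk1+ cells and r = 0.965 in control organoids. The sorted-cell and control organoid files list different sets of genes (15746 and 15984, with 14384 in both), a gene not listed was taken as 0, and the sort, the handling of the cells and the cell type differ together between the groups and cannot be told apart. In all 10325 genes were tested, and 30.3% of them passed an adjusted p of 0.05, with 13.2% (1363) higher and 17.1% (1767) lower in Dclk1+ cells. The median log2 fold change of all genes was -0.14. Without control organoids replicate 1 the count of genes past the threshold was 2044, and without control organoids replicate 2 it was 1769, against 3130 with both. Fewer cells of a type and less RNA per cell cannot be told apart in such bulk libraries. Genes are described by lists, each with the genes of smallest adjusted p and the members that could not be tested. Further genes were chosen for their role after their values were seen. Members and lists were chosen with earlier results of these data known, so counts of rises and falls in them are no independent support.

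The gene behind the sort was read first. Dclk1, which encodes the microtubule-associated kinase that marks tuft cells, had 792 and 663 CPM in Dclk1+ cells, against 2.7 and 4.85 CPM in control organoids. Trpm5 had 827 and 856 CPM in Dclk1+ cells, against 2.94 and 1.89 CPM in control organoids (log2 fold change 8.40, SE 0.46, adjusted p = 1.06e-09). For both genes the 2 Dclk1+ libraries were close to each other and far above the control organoids, with no overlap. Dclk1 lies on chromosome 3 (55242364 to 55539068) and Trpm5 on chromosome 7 (143069153 to 143094642) (GENCODE M21, mm10), and both are protein-coding.

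Transcription factors of the tuft lineage were higher in Dclk1+ cells almost throughout. The list of 12 also holds Dclk1 itself, which the sort used. All 12 were tested, 11 rose and none fell, beside the 13.2% of all genes that rose, and 3 of the 12 passed the low-count filter only through Dclk1+ libraries. Among the 9 that passed without them, 8 rose. Dclk1 is counted in both the 11 and the 8, where it checks the sort and is not a finding. Pou2f3, which lies on chromosome 9 (43123939 to 43210369), had 216 and 228 CPM in Dclk1+ cells and 1.23 and 2.16 CPM in control organoids (log2 6.99, SE 0.58, adjusted p = 1.29e-07). Spib, an Ets family factor, had 1930 and 2091 CPM in Dclk1+ cells and 3.92 and 7.28 CPM in control organoids (log2 8.48, SE 0.51, adjusted p = 2.54e-09). The homeobox gene Hmx2 had 401 and 434 CPM in Dclk1+ cells and 1.23 and 0.539 CPM in control organoids (log2 8.76, SE 0.55, adjusted p = 3.8e-09, or 9.37 without control organoids replicate 1). In each of these 3 genes the Dclk1+ libraries differed from each other by far less than from the control organoids.

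Gfi1b, a zinc finger repressor known from blood cells, had 106 and 76.2 CPM in Dclk1+ cells and 0.735 and 0.27 CPM in control organoids (log2 7.29, SE 0.89, adjusted p = 1.8e-05, or 8.01 without control organoids replicate 1). Sox9 had 237 and 335 CPM in Dclk1+ cells and 42.4 and 44.5 CPM in control organoids (log2 2.72, SE 0.31, adjusted p = 6.13e-06), and Zfp428, a zinc finger gene, had 263 and 230.2 CPM in Dclk1+ cells and 22.8 and 15.1 CPM in control organoids (log2 3.69, SE 0.42, adjusted p = 6.21e-06). Neither overlapped between the groups. Sox9 is also known from stem and Paneth cells, and in other untreated whole organoids of the series, scaled by library total, it had 266 to 325 CPM at 6 h and 166 to 191 CPM at 96 h, against 260.1 to 342 CPM in Dclk1+ cells, so that its rise was not seen against the 6 h organoids. Ascl2, a factor of Lgr5+ stem cells that was placed on both the lineage and the stem cell list, had 21.8 and 18.2 CPM in Dclk1+ cells and 19.8 and 19.1 CPM in control organoids and did not pass the test (adjusted p = 0.968), with overlapping groups.

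**Figure D1:**
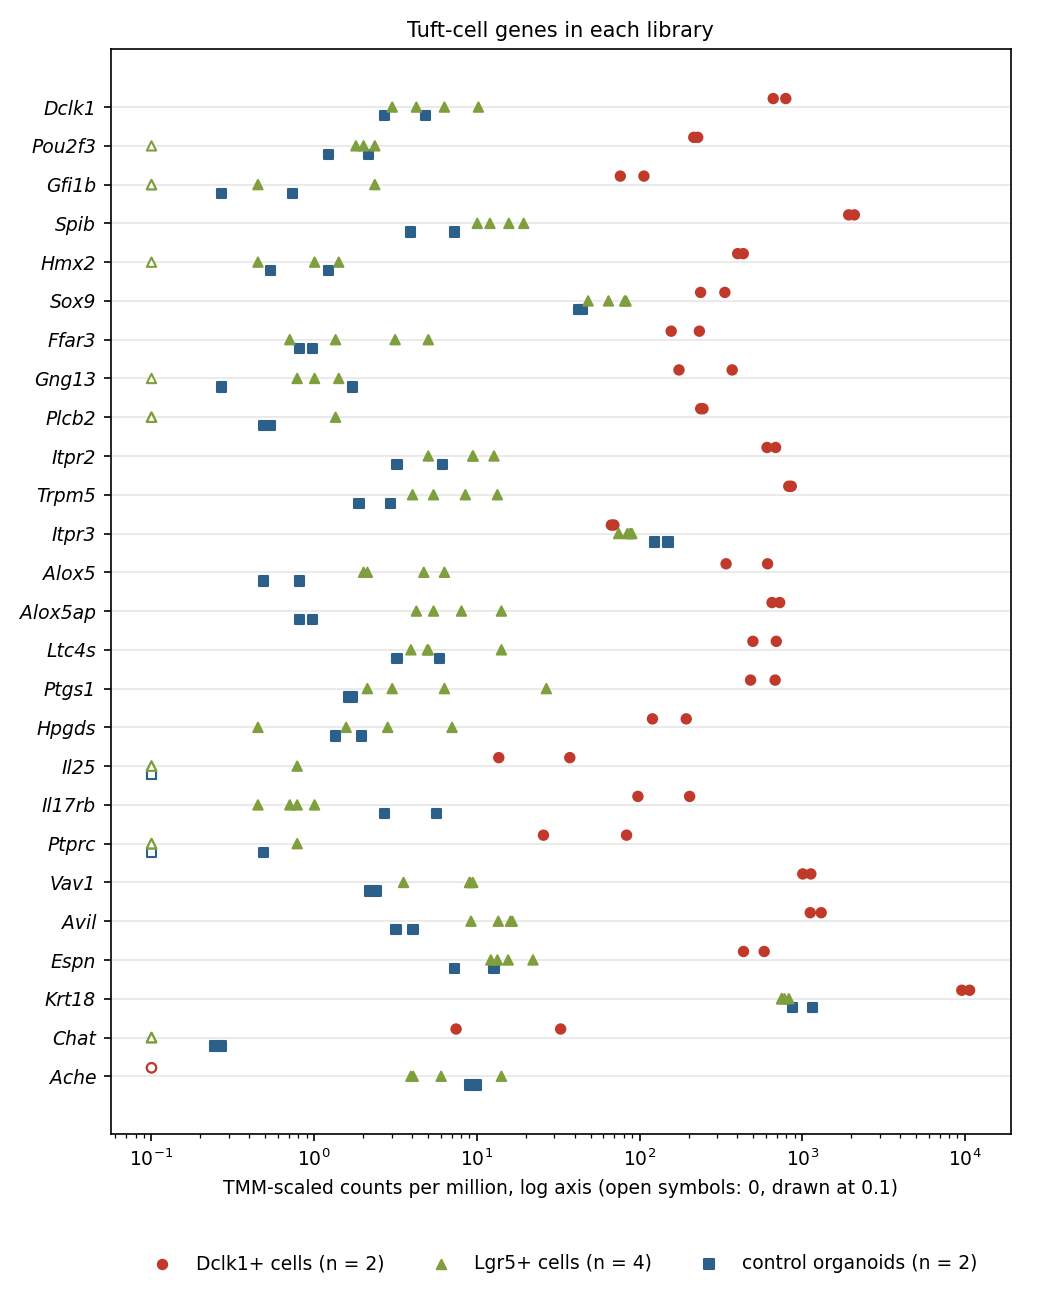
TMM-scaled CPM (log axis) of 26 tuft-cell genes, 1 per row, in each library of Dclk1+ cells (circles, n = 2), Lgr5+ cells (triangles, n = 4) and control organoids (squares, n = 2). Open symbols mark 0 counts and are drawn at 0.1. Except in the rows of Itpr3 and Ache, the circles lie to the right of both squares; Trpm5, for example, has 826.6 and 856.3 CPM in Dclk1+ cells against 2.94 and 1.89 CPM in control organoids.

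Most tested genes of the taste-type signalling pathway rose. Of 18 genes listed, 15 were tested, 12 rose and 1 fell, beside 13.2% and 17.1% of all genes. The fall was that of the type 3 inositol trisphosphate receptor gene, whose limits are given below. The median log2 fold change of those tested was 6.92, or 6.37 with a gene at 0 counts set to its bound, against -0.14 for all genes. 4 of the 15 passed the filter only through Dclk1+ libraries, and of the other 11, 8 rose.

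Among receptors, Ffar3, which binds short-chain fatty acids, had 233 and 157 CPM in Dclk1+ cells and 0.98 and 0.809 CPM in control organoids (log2 7.65, SE 0.56, adjusted p = 2.66e-08). The succinate receptor gene Sucnr1 was counted in 1 Dclk1+ library only, with 0 and 15.7 CPM in Dclk1+ cells and 0 and 0 in control organoids. Its level was at least 25.4-fold higher against a floor of 3 counts over the control organoids, and it passed the test (adjusted p = 0.0222) but not without Dclk1+ replicate 2, where no count is left, nor without control organoids replicate 1 or replicate 2 (0.175 and 0.183). Tas1r3, a subunit of the sweet and umami taste receptors, had 34.1 and 51.3 CPM in Dclk1+ cells and 1.23 and 0.539 CPM in control organoids (log2 5.48, SE 1.14, adjusted p = 0.00183, or 6.09 without control organoids replicate 1).

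Downstream of the receptors, the G protein subunit gene Gng13 had 371 and 175 CPM in Dclk1+ cells and 1.72 and 0.27 CPM in control organoids (log2 7.97, SE 0.68, adjusted p = 3.37e-07, or 7.32 without Dclk1+ replicate 1 and 9.58 without control organoids replicate 1 and 7.22 without control organoids replicate 2). Plcb2, the phospholipase C of the taste pathway, had 246 and 238 CPM in Dclk1+ cells and 0.49 and 0.539 CPM in control organoids (log2 8.69, SE 0.64, adjusted p = 5.68e-08). Gng13 thus differed between the Dclk1+ replicates, while Plcb2 was close to equal in them. Gnat3 encodes gustducin, the G protein alpha subunit of taste cells. Gnat3 had 0 counts in both Dclk1+ libraries and in both control organoid libraries, where a gene not listed also counts as 0. Gnb3 had 2 counts in Dclk1+ replicate 1 and 0 in the other libraries, under the filter, and Tas1r1 was not analysed here. Gnai2, a widely expressed G protein subunit gene, had 479 and 502 CPM in Dclk1+ cells and 241 and 438 CPM in control organoids and did not pass (adjusted p = 0.219).

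The 2 inositol trisphosphate receptor genes on the list went opposite ways. Itpr2 had 686 and 608 CPM in Dclk1+ cells and 6.13 and 3.24 CPM in control organoids (log2 7.08, SE 0.44, adjusted p = 3.8e-09). Itpr3, the type used by taste cells, had 69.6 and 67.1 CPM in Dclk1+ cells and 149 and 123 CPM in control organoids (log2 -1.0, SE 0.33, adjusted p = 0.0317). Neither gene's groups overlapped. Scaled by library total, Itpr3 had 68.6 to 76.2 CPM in Dclk1+ cells, 19.7 to 35.8 CPM in other untreated organoids at 6 h, 43.5 to 54.4 CPM at 96 h and 147 to 169 CPM in the control organoids, so that Dclk1+ cells were above the other sets. The fall of Itpr3 lost the threshold with any 1 of the 4 libraries left out (log2 from -1.16 to -0.88, adjusted p from 0.0629 to 0.165). Atp2a3, a calcium pump of the endoplasmic reticulum, had 1911 and 2097 CPM in Dclk1+ cells and 20.8 and 27.5 CPM in control organoids (log2 6.37, SE 0.36, adjusted p = 1.61e-09).

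Regulators of G protein signalling, which shorten the signal of G proteins, rose too. Rgs13 had 185 and 217 CPM in Dclk1+ cells and 0.245 and 0.27 CPM in control organoids, where it held 2 counts in all. Its count ratio was 799, with an exact 95% interval of 219.7 to 6618 that covers counting error only (adjusted p = 2.85e-09). Whole organoids of the other untreated sets of the series held more Rgs13: scaled by library total, it had 203 to 222 CPM in the Dclk1+ libraries, 11.9 to 15.6 in untreated organoids at 6 h (3 libraries), 4.21 to 8.05 at 96 h (3 libraries) and 0.278 to 0.322 in the control organoids. On the same scale Dclk1 had 678.6 to 868.6 CPM in Dclk1+ cells, 10.7 to 18.4 at 6 h, 10.9 to 17.4 at 96 h and 3.06 to 5.80 in the control organoids. For these 2 genes the Dclk1+ libraries were above each set, while the size of the fold depends on which whole organoids are taken. Rgs2 had 831 and 705 CPM in Dclk1+ cells and 2.94 and 3.24 CPM in control organoids (log2 7.93, SE 0.52, adjusted p = 5.62e-09).

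Enzymes that make leukotrienes and prostaglandins mostly rose. Of 12 genes listed, 9 were tested, all of which passed the filter without Dclk1+ libraries, and 6 rose and 1 fell, with a median log2 fold change of 6.49, beside the 13.2% of all genes that rose and the 17.1% that fell. The leukotriene branch was led by Alox5, which encodes 5-lipoxygenase and had 612 and 340.4 CPM in Dclk1+ cells and 0.49 and 0.809 CPM in control organoids (log2 9.38, SE 0.52, adjusted p = 1.2e-09). Its activating protein gene Alox5ap had 652 and 727 CPM in Dclk1+ cells and 0.98 and 0.809 CPM in control organoids (log2 9.48, SE 0.58, adjusted p = 3.2e-09). Ltc4s, the synthase of leukotriene C4, had 693 and 498 CPM in Dclk1+ cells and 5.88 and 3.24 CPM in control organoids (log2 7.0, SE 0.52, adjusted p = 3.05e-08). All 3 lay far apart between the groups. Lta4h, which makes leukotriene B4 from the same precursor, had 66.8 and 83.6 CPM in Dclk1+ cells and 83.8 and 85.2 CPM in control organoids and did not pass the test (adjusted p = 0.695).

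In the prostaglandin branch, the cyclooxygenase gene Ptgs1 had 481 and 682 CPM in Dclk1+ cells and 1.72 and 1.62 CPM in control organoids (log2 8.39, SE 0.65, adjusted p = 5.18e-08), and the prostaglandin D synthase gene Hpgds had 194 and 120.1 CPM in Dclk1+ cells and 1.96 and 1.35 CPM in control organoids (log2 6.49, SE 0.51, adjusted p = 5.79e-08). Ptgs2, the inducible cyclooxygenase gene, had 10 counts in Dclk1+ replicate 1 (13.6 CPM) and 0 in the other Dclk1+ library and in both control organoid libraries, under the filter. Ptges, a prostaglandin E synthase gene, and Tbxas1, the thromboxane synthase gene, were under the filter and not tested, and Ptges3, another prostaglandin E synthase gene, fell. Ptges had 0 counts in Dclk1+ cells and 5 in control organoids, Tbxas1 had 3 counts in Dclk1+ cells and 5 in control organoids, and Ptges3 had 46.4 and 28.2 CPM in Dclk1+ cells and 89.2 and 71.7 CPM in control organoids (log2 -1.13, SE 0.38, adjusted p = 0.0327, a call lost without Dclk1+ replicate 2, where adjusted p = 0.171, and without control organoids replicate 1 or replicate 2, 0.158 and 0.0644). Pla2g4a, the phospholipase that releases arachidonic acid, had 123 and 125 CPM in Dclk1+ cells and 6.13 and 9.17 CPM in control organoids (log2 4.01, SE 0.36, adjusted p = 3.31e-07). Scaled by library total it had 128 to 135 CPM in Dclk1+ cells, 54.2 to 65.8 CPM in other untreated organoids at 6 h and 30.2 to 47.7 CPM at 96 h, so its difference from those sets was smaller.

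Signalling proteins best known from white blood cells rose as a group. Of 33 genes listed, 28 were tested, 26 rose and none fell, beside 13.2% and 17.1% of all genes. All 28 had both Dclk1+ libraries above both control libraries, beside 26.5% of all genes tested. 4 of the 28 passed the filter only through Dclk1+ libraries, and of the other 24, 22 rose. Vav1, an exchange factor for small GTPases, had 1129 and 1008 CPM in Dclk1+ cells and 2.21 and 2.43 CPM in control organoids (log2 8.81, SE 0.48, adjusted p = 1.06e-09). Pik3r5, a regulatory subunit of phosphoinositide 3-kinase gamma, had 699.7 and 571 CPM in Dclk1+ cells and 0.98 and 1.62 CPM in control organoids (log2 8.87, SE 0.45, adjusted p = 5.28e-10). Both were near the counting floor in whole organoids, with 18 and 10 counts over the 2 libraries for Vav1 and Pik3r5.

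Lrmp, a membrane protein gene of lymphocytes, had 998 and 863 CPM in Dclk1+ cells and 1.72 and 2.43 CPM in control organoids (log2 8.77, SE 0.45, adjusted p = 5.28e-10), and Ly6g6f, of the Ly6 family, had 858 and 956 CPM in Dclk1+ cells and 0.98 and 1.08 CPM in control organoids (log2 9.69, SE 0.49, adjusted p = 5.28e-10). Cd24a, a surface protein used to sort secretory cells, rose to 5679 and 5847 CPM in Dclk1+ cells, against 307 and 332 CPM in control organoids (log2 4.17, SE 0.25, adjusted p = 2.15e-09). Cd47 and Gimap1 were above both control libraries in both Dclk1+ libraries but did not pass (adjusted p = 0.0672 and 0.237); Cd47 passed with RLE scaling, with thinned counts and with DESeq2.

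Ptprc, which encodes the pan-leukocyte protein CD45 and is also known from a subset of tuft cells, had 83.2 and 25.7 CPM in Dclk1+ cells and 0.49 and 0 CPM in control organoids, where it held 2 counts in all. Its count ratio was 185 (exact 95% interval 49.7 to 1547, counting error only; adjusted p = 0.000288). Markers of white blood cells were otherwise at or near 0: of 27 such genes listed, 2 were tested, 16 were under the filter and 9 were not analysed here. Csf1r, Itgax, Cd3e, Cd79a and Cpa3, markers of macrophages, dendritic cells, T cells, B cells and mast cells, had 0 counts in both Dclk1+ libraries. Gzmb had 16 counts in Dclk1+ replicate 2 and 0 in replicate 1 and in control organoids. Kit, known from mast cells and also from secretory epithelial cells, was the 1 gene of that list that rose, with 84.6 and 136 CPM in Dclk1+ cells and 4.9 and 4.32 CPM in control organoids (log2 4.56, SE 0.52, adjusted p = 6.65e-06). The summed level of the list was 84.6 and 156 CPM in Dclk1+ cells, most of it Kit, and 8.58 and 5.12 CPM in control organoids. Of 13 stromal and neural genes 1 was tested and did not pass.

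Cytokine and receptor genes of the type 2 response were present. Il25 had 13.6 and 37.3 CPM in Dclk1+ cells (55 counts) and 0 counts in control organoids, at least 73.6-fold higher against a floor of 3 counts over the control organoids (adjusted p = 0.000316). Il17rb, a subunit of the interleukin 25 receptor, had 203 and 97.7 CPM in Dclk1+ cells and 2.7 and 5.66 CPM in control organoids (log2 5.15, SE 0.61, adjusted p = 9.22e-06, or 4.52 without Dclk1+ replicate 1). The receptor genes for interleukins 4 and 13 also rose: Il4ra had 109 and 92.8 CPM in Dclk1+ cells and 24.7 and 23.5 CPM in control organoids (log2 2.06, SE 0.35, adjusted p = 0.000316), and Il13ra1 had 136 and 221 CPM in Dclk1+ cells and 23.8 and 25.4 CPM in control organoids (log2 2.87, SE 0.45, adjusted p = 0.000154). Neither pair of groups overlapped. Tslp had 1 count in Dclk1+ cells and 0 in control organoids, Il2rg had 0 counts throughout, Coro1a had 3 counts in Dclk1+ cells and 0 in control organoids, and Sh2d6 was not analysed here.

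The gene symbol Siglecf had 0 counts in all 4 libraries, where a gene not listed also counts as 0. RefSeq for GRCm38.p6 gives Siglec5 as a synonym of Siglecf. Siglec5 had 183 and 187 CPM in Dclk1+ cells and 0.245 and 0 CPM in control organoids, 1 count in all. Its ratio of counts was 1445 (exact 95% interval 257.7 to 57228), the largest fitted rise among genes with at least 20 CPM (adjusted p = 6.83e-09). The 10 largest rises also held Inpp5d, Smpx, Dgki, A4galt, Ly6g6f, Gm4952, Alox5ap and Il9r. Of these, Smpx, Dgki, A4galt, Gm4952 and Il9r had 0 counts in control organoids and were at least 131-fold to 157.9-fold higher in Dclk1+ cells. Inpp5d encodes the lipid phosphatase SHIP1 of blood cells and had 649 and 606 CPM in Dclk1+ cells and 0.245 and 1.08 CPM in control organoids (log2 9.78, SE 0.73, adjusted p = 3.09e-08, or 9.05 without control organoids replicate 1 and 10.91 without control organoids replicate 2). Il9r, an interleukin 9 receptor subunit, had 34.1 and 60.5 CPM in Dclk1+ cells and 0 counts in control organoids. These genes were picked for size, so their folds describe the top of the range.

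Genes of the apical brush and the cytoskeleton mostly rose. Of 16 listed, 15 were tested, 12 rose and 1 fell, beside 13.2% and 17.1% of all genes, and 3 passed the filter only through Dclk1+ libraries. Among the 12 that passed without them, 9 rose, with a median log2 fold change of 2.78. Avil, an actin-bundling relative of villin, had 1308 and 1120.5 CPM in Dclk1+ cells and 3.19 and 4.05 CPM in control organoids (log2 8.37, SE 0.43, adjusted p = 5.28e-10). Espn, an actin bundler of stereocilia and brush cells, had 584 and 436 CPM in Dclk1+ cells and 12.7 and 7.28 CPM in control organoids (log2 5.65, SE 0.37, adjusted p = 5.62e-09). Krt18, a keratin gene of simple epithelia, had 9568 and 10691 CPM in Dclk1+ cells and 872 and 1153 CPM in control organoids (log2 3.32, SE 0.23, adjusted p = 1.17e-08), and Tuba1a, an alpha tubulin gene, had 547 and 388 CPM in Dclk1+ cells and 6.37 and 4.32 CPM in control organoids (log2 6.43, SE 0.40, adjusted p = 3.2e-09). Smpx had 77.7 and 44.7 CPM in Dclk1+ cells and 0 counts in control organoids. All of these groups were apart. Vil1, the villin gene that enterocytes share, had 361 and 345 CPM in Dclk1+ cells and 261 and 296 CPM in control organoids and did not pass (adjusted p = 0.355). Actg1 had 1865 and 1680.3 CPM in Dclk1+ cells and 2761 and 3229 CPM in control organoids (log2 -0.76, SE 0.21, adjusted p = 0.0112), a call lost without Dclk1+ replicate 2 or control organoids replicate 2 (adjusted p = 0.051 and 0.0548). Fscn1 had 0 counts in Dclk1+ cells and 2 in control organoids.

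The cholinergic and secreted list was thin. Of 9 genes, 5 were tested, 3 of them only through Dclk1+ libraries, and 4 rose and 1 fell; of the 2 that passed the filter without those libraries 1 rose and 1 fell. A further 3 were under the filter and 1 was not analysed here. Chat, the enzyme that makes acetylcholine, had 32.7 and 7.45 CPM in Dclk1+ cells and 0.245 and 0.27 CPM in control organoids, 33 counts against 2 (count ratio 66.2, exact 95% interval 16.9 to 569.6; adjusted p = 0.00406). The call was lost without control organoids replicate 1 or replicate 2 (adjusted p = 0.0546 and 0.0551). Ache, which breaks acetylcholine down, had 0 counts in Dclk1+ cells and 9.07 and 9.98 CPM in control organoids, at least 6.15-fold lower (adjusted p = 0.0183), a call that did not hold without Dclk1+ replicate 2 or control organoids replicate 2 (adjusted p = 0.0822 and 0.0561). Neither gene of the acetylcholine pair thus held in every fit. Of the transporters for acetylcholine and choline, Slc18a3 had 6 counts in Dclk1+ replicate 2 and 0 elsewhere, and Slc5a7 had 1 count in Dclk1+ cells and 4 in control organoids. Agt, which encodes angiotensinogen, had 177 and 151 CPM in Dclk1+ cells and 1.72 and 1.89 CPM in control organoids (log2 6.45, SE 0.49, adjusted p = 4.07e-08), and Lect2 had 151 and 82 CPM in Dclk1+ cells and 1.72 and 2.43 CPM in control organoids (log2 5.76, SE 0.53, adjusted p = 4.91e-07). Ucn3, a peptide hormone gene, had 0 counts in Dclk1+ cells and 17 in control organoids.

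Metabolic genes linked to tuft cells mostly rose. All 16 were tested and passed the filter without Dclk1+ libraries, 14 rose and 2 fell, beside 13.2% and 17.1% of all genes, and the median log2 fold change was 2.41. Pygl, the glycogen phosphorylase of liver, had 629 and 932 CPM in Dclk1+ cells and 1.47 and 2.16 CPM in control organoids (log2 8.71, SE 0.44, adjusted p = 5.28e-10). Neither its groups nor those of the next genes overlapped. Aldh2, which oxidises aldehydes in mitochondria, had 5089 and 5918 CPM in Dclk1+ cells and 326 and 310.4 CPM in control organoids (log2 4.11, SE 0.26, adjusted p = 4.93e-09), and Adh1, an alcohol dehydrogenase gene, had 12506 and 11229 CPM in Dclk1+ cells and 1634 and 2536 CPM in control organoids (log2 2.51, SE 0.26, adjusted p = 1.64e-06). Inpp5j, a phosphoinositide phosphatase gene, had 502 and 541 CPM in Dclk1+ cells and 30.6 and 36.9 CPM in control organoids (log2 3.95, SE 0.32, adjusted p = 8.13e-08). Galk1, which encodes galactokinase, had 3381 and 2835 CPM in Dclk1+ cells and 471 and 331 CPM in control organoids (log2 2.95, SE 0.28, adjusted p = 7.79e-07). The 2 falls were Ckb, brain-type creatine kinase, with 49.1 and 53.8 CPM in Dclk1+ cells and 379 and 359.5 CPM in control organoids (log2 -2.84, SE 0.32, adjusted p = 4.76e-06), and Gapdh, with 2025 and 2023 CPM in Dclk1+ cells and 4076 and 5501 CPM in control organoids (log2 -1.24, SE 0.24, adjusted p = 0.000967). Both falls held with any 1 of the 4 libraries left out, and Gapdh, often used to normalise, thus differed between these groups.

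A longer list of 97 genes known from intestinal tuft cells shares members with the lists above. Its members were chosen with earlier results of these data known, so its counts of rises are no independent support. The list held 8.89% and 8.07% of the counts in the Dclk1+ libraries and 0.693% and 0.893% in the control organoid libraries. Of the 97, 96 were tested, 92 rose and none fell, with a median log2 fold change of 5.38, and the 4 that did not pass were Gnai2, Gimap1, Cd47 and Ccdc23. 8 of the 96 passed the filter only through Dclk1+ libraries, and of the other 88, 84 rose, beside 12.0% of the 9482 genes that passed in the same way. In all 96 both Dclk1+ libraries were above both control libraries, beside 26.5% of all genes. Leaving out any 1 of the 4 libraries left 87 to 92 that rose. Kctd12, which encodes a protein that associates with GABA-B receptors, was on this list alone and had 1215 and 1470 CPM in Dclk1+ cells and 2.45 and 1.35 CPM in control organoids (log2 9.40, SE 0.56, adjusted p = 2.54e-09).

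**Figure D2:**
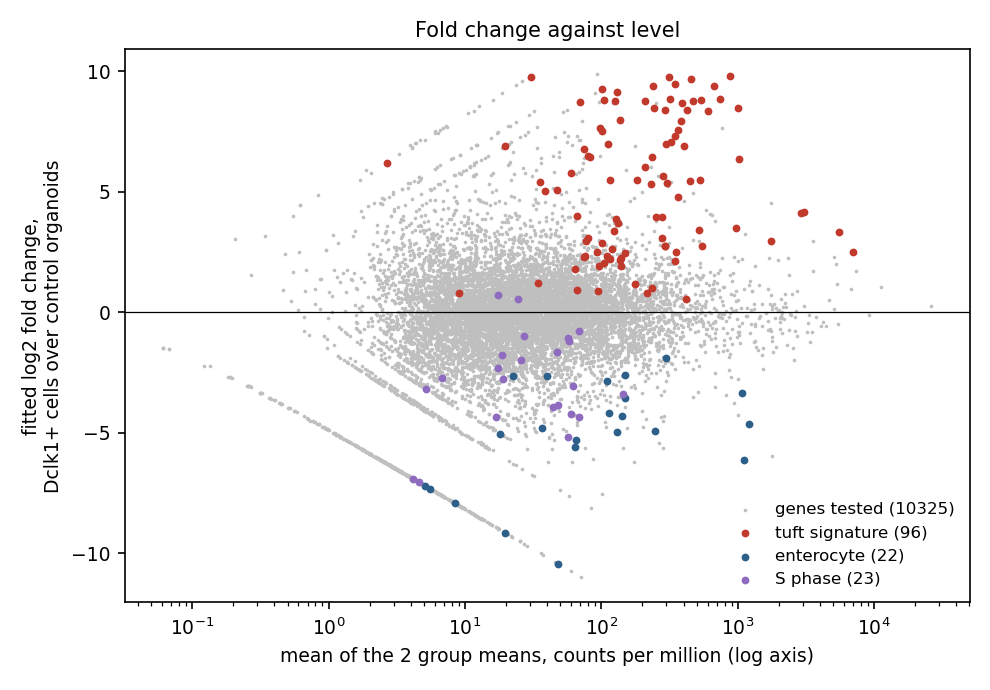
Fitted log2 fold change of Dclk1+ cells over control organoids (y axis) against the mean level of the 2 groups in CPM (x axis, log) for the 10325 genes tested (grey), with the tuft signature (96 genes), enterocyte (22) and S phase (23) lists in colour. Tuft genes lie above 0 and the other lists mostly below; the straight line at the lower edge is formed by genes with 0 counts in Dclk1+ cells, whose fitted value is no measured fold.

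Promoters of tuft genes were read for the octamer ATGCAAAT, the sequence that factors of the Pou2f class bind, since Pou2f3 is of that class and the tuft genes rose together. The windows were those of RefSeq on GRCm38.p6, from 250 bases before to 50 after each annotated start, on both strands. Of the 142 genes on the tuft lists, 113 had a window and 8 of these (7.08%) held the octamer, against 532 of all 27025 genes in the table (1.97%). Among genes tested it was present in 35 of 996 that were higher in Dclk1+ cells (3.51%) and in 12 of 1370 that were lower (0.876%), against 132 of 7777 in all (1.70%). The 8 tuft genes were Sucnr1, Hpgds, Zfp428, Il4ra, 1810046K07Rik, Kctd12, Ly6g6d and Itpr3, of which Itpr3 fell and the others rose. The 3 shown are of genes with large rises, chosen after their values were seen, each as the 200 bases before its start, in the direction of the gene, with the octamer or its reverse complement ATTTGCAT in capitals. Kctd12 lies at chr14:102982638-102982837, Hpgds at chr6:65144731-65144930 and Ly6g6d at chr17:35081240-35081439, all on the minus strand of GRCm38.p6.
Kctd12: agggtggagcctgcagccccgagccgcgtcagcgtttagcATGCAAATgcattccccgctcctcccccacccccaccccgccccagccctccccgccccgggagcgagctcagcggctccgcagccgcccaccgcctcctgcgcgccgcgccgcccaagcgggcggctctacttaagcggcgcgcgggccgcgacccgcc
Hpgds: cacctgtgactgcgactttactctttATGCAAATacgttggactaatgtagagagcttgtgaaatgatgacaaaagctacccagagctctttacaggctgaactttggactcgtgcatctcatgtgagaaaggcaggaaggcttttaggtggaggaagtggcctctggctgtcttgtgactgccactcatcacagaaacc
Ly6g6d: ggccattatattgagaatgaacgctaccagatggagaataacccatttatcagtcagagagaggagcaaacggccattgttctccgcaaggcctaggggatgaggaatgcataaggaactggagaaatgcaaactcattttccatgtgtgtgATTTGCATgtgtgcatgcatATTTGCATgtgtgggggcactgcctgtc
The match begins 160 bases before the start in Kctd12, 174 bases before it in Hpgds and 48 bases before it in Ly6g6d, which holds 2 matches on the opposite strand. A match of letters is a description of the window and no sign of binding. Ly6g6d had 951 and 648 CPM in Dclk1+ cells and 6.86 and 6.2 CPM in control organoids (log2 6.92, SE 0.46, adjusted p = 6.74e-09).

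The other cell types of the organoid were read from their markers. Genes of the absorptive cells were lower in the sorted cells. Of 23 enterocyte genes, 22 were tested, none rose and 21 fell, beside the 17.1% of all genes that fell, with a median log2 fold change of -4.24 with genes at 0 counts set to their bound. Apoa1, an apolipoprotein gene, had 15 and 16.6 CPM in Dclk1+ cells and 509 and 456 CPM in control organoids (log2 -4.92, SE 0.55, adjusted p = 5.38e-06), and Apoa4, another, had 61.4 and 6.63 CPM in Dclk1+ cells and 2155 and 2238 CPM in control organoids (log2 -6.12, SE 0.69, adjusted p = 5.67e-06, or -8.38 without Dclk1+ replicate 1 and -5.19 without Dclk1+ replicate 2). Alpi, the intestinal alkaline phosphatase, had 0 and 14.1 CPM in Dclk1+ cells and 237 and 273 CPM in control organoids (log2 -4.97, SE 0.76, adjusted p = 0.000148, or -4.19 without Dclk1+ replicate 1 and 0 counts left in Dclk1+ cells without replicate 2). Both Dclk1+ libraries lay below both control libraries in each of these genes. The trehalase gene Treh had 0 counts in Dclk1+ cells and 111 and 82.3 CPM in control organoids, at least 62.8-fold lower. That size belongs to these control libraries, since other untreated organoids had 4.59 to 7.46 CPM at 6 h and 2.09 to 4.91 CPM at 96 h, scaled by library total. The size of the Apoa4 fall does too. On the same scale Apoa4 had 2444 to 2675 CPM in the control organoids and 6.78 to 67.3 CPM in Dclk1+ cells. The other untreated organoids had 144 to 238 CPM at 6 h and 59.3 to 82.8 CPM at 96 h, where they overlapped with Dclk1+ cells. The summed level of the list was 548 and 667 CPM in Dclk1+ cells and 10254 and 8835 CPM in control organoids.

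Hormone and secretory granule genes of enteroendocrine cells were at or near 0 in the Dclk1+ libraries, except for secretin. Of 28 listed, 15 were tested, 2 rose and 9 fell, beside 13.2% and 17.1% of all genes, and 9 of the 15 had 0 counts in Dclk1+ cells. Without control organoids replicate 2 the number that fell was 5, and it was 6 of those tested without control organoids replicate 1 or Dclk1+ replicate 1. Chga, the chromogranin A gene, had 0 counts in Dclk1+ cells and 18.4 and 25.4 CPM in control organoids, at least 14-fold lower. Cck and Ghrl, which encode cholecystokinin and ghrelin, had 0 counts in Dclk1+ cells and were at least 29-fold and 25.2-fold lower. Chgb had 1 count in Dclk1+ cells and 756 in control organoids (count ratio of control organoids over Dclk1+ cells 188, exact 95% interval 33.7 to 7449). These genes were near or at the floor in the sorted cells. Sct, the secretin gene, went against its list, with 96.8 and 141 CPM in Dclk1+ cells and 13 and 4.32 CPM in control organoids (log2 3.77, SE 0.65, adjusted p = 0.000353, or 4.73 without control organoids replicate 1 and 3.17 without control organoids replicate 2), and it passed with any 1 of the 4 libraries left out. Cacna1a, a calcium channel gene, was the other rise, with 61.4 and 19 CPM in Dclk1+ cells and 3.43 and 3.51 CPM in control organoids (log2 3.49, SE 0.76, adjusted p = 0.00235, or 2.42 without Dclk1+ replicate 1 and 4.09 without Dclk1+ replicate 2).

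Paneth and goblet genes set the 2 Dclk1+ libraries apart. Counts of falls in these lists, given below, stand beside the 17.1% of all genes that fell with every library in. The share of all genes that fell also changed with the library left out. The summed level of 18 Paneth genes was 351 CPM in Dclk1+ replicate 1 and 4572 CPM in Dclk1+ replicate 2, and 9962 and 8772 CPM in control organoids. The sum of 15 goblet genes was 258 CPM in Dclk1+ replicate 1 and 2550 CPM in Dclk1+ replicate 2, and 5447 and 3059 CPM in control organoids. Replicate 2 thus lay below the control organoids in both sums but far closer to them than replicate 1. Single genes showed the same split. Lyz1, the lysozyme of Paneth cells, had 27.3 and 242 CPM in Dclk1+ cells and 1419 and 1564 CPM in control organoids (log2 -3.44, SE 0.79, adjusted p = 0.00339, or -2.64 without Dclk1+ replicate 1 and -5.80 without Dclk1+ replicate 2). Itln1, an intelectin gene, had 20.5 and 1565 CPM in Dclk1+ cells and 2092 and 2412 CPM in control organoids (adjusted p = 0.249, or 4.78e-05 without Dclk1+ replicate 2). Spink4, a protease inhibitor gene of goblet cells, had 31.4 and 1506 CPM in Dclk1+ cells and 2411 and 1276 CPM in control organoids (adjusted p = 0.261, or 1.07e-06 without Dclk1+ replicate 2). The Dclk1+ libraries thus differed far more than the control libraries, and for Spink4 the groups overlapped. Fcgbp, a mucus protein gene, had 0 and 49.7 CPM in Dclk1+ cells and 595 and 499 CPM in control organoids (a call lost when the 4 libraries compared were fitted alone; log2 -4.33, SE 0.78, adjusted p = 0.000495, or -3.48 without Dclk1+ replicate 1 and 0 counts left in Dclk1+ cells without replicate 2).

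Of the Paneth list 17 genes were tested and 7 fell; without Dclk1+ replicate 2 the number was 14, and without Dclk1+ replicate 1 it was 5, with 1 rise; without control organoids replicate 2 it was 3. Of the goblet list 13 were tested and 6 fell, with 5 falls without Dclk1+ replicate 1, 7 without Dclk1+ replicate 2 and 2 without control organoids replicate 1. Muc2, the main mucin gene of goblet cells, had 0 and 30.6 CPM in Dclk1+ cells and 197 and 122 CPM in control organoids (log2 -3.25, SE 0.84, adjusted p = 0.00807, or -2.40 without Dclk1+ replicate 1 and 0 counts left in Dclk1+ cells without replicate 2), a call lost without control organoids replicate 1 (adjusted p = 0.0643). Agr2, a disulfide isomerase gene of mucus-secreting cells, had 6.82 and 29 CPM in Dclk1+ cells and 230.1 and 197 CPM in control organoids (log2 -3.49, SE 0.54, adjusted p = 0.000144, or -2.90 without Dclk1+ replicate 1 and -4.99 without Dclk1+ replicate 2). Several Paneth genes, such as the defensins, are near-identical copies, and how reads were split between them is not given in the sources used here. The part of other cells' RNA in these values was not tested. The tuft signature did not follow the split, with a summed level of 81062 CPM in replicate 1 and 78872 CPM in replicate 2, and 6109 and 7472 CPM in control organoids.

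**Figure D3:**
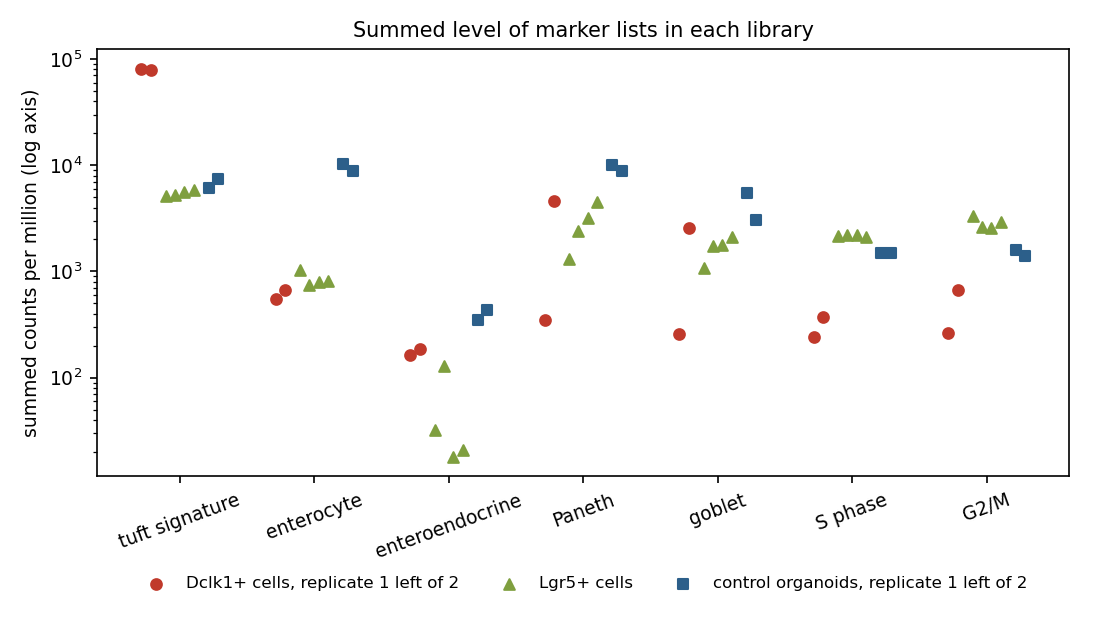
Summed CPM (log axis) of marker lists in each library of Dclk1+ cells (circles, replicate 1 left of replicate 2), Lgr5+ cells (triangles, n = 4) and control organoids (squares, replicate 1 left of replicate 2). The 2 Dclk1+ libraries lie close together for the tuft signature (81062 and 78872 CPM) and differ for the Paneth (351 and 4572 CPM) and goblet (258 and 2550 CPM) lists.

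Cell cycle genes were lower in Dclk1+ cells. Of 23 S phase genes, all tested, none rose and 15 fell, and of 23 G2/M genes 22 were tested, 1 rose and 16 fell, beside 13.2% and 17.1% of all genes, with median log2 fold changes of -2.56 and -2.31 with genes at 0 counts at their bound. Mki67, which marks cycling cells, had 0 counts in both Dclk1+ libraries and 138 and 147 CPM in control organoids (1108 counts), at least 92-fold lower (adjusted p = 1.05e-05). Mcm2, a subunit of the replicative helicase, had 8.18 and 4.97 CPM in Dclk1+ cells and 144 and 115 CPM in control organoids (log2 -4.35, SE 0.41, adjusted p = 7.16e-07), and Aurka, a mitotic kinase gene, had 13.6 and 13.3 CPM in Dclk1+ cells and 70.8 and 57.4 CPM in control organoids (log2 -2.25, SE 0.37, adjusted p = 0.000249). Here too the replicates differed: Top2a had 0 and 119 CPM in Dclk1+ cells and 281 and 299.9 CPM in control organoids (log2 -2.21, SE 0.74, adjusted p = 0.0312, or -1.30 without Dclk1+ replicate 1 and 0 counts left in Dclk1+ cells without replicate 2), a call lost without control organoids replicate 1 or replicate 2 (adjusted p = 0.0585 and 0.077). Birc5, which encodes survivin, had 4.09 and 129 CPM in Dclk1+ cells and 123 and 85.5 CPM in control organoids and did not pass (adjusted p = 0.537, or 6.84e-05 without Dclk1+ replicate 2). The summed G2/M level was 262 and 667 CPM in Dclk1+ cells and 1586 and 1395 CPM in control organoids. The 1 rise was the kinesin gene Kif11, with 109 and 77.8 CPM in Dclk1+ cells and 46.1 and 21.6 CPM in control organoids (log2 1.46, SE 0.45, adjusted p = 0.0213, or 2.07 without control organoids replicate 1), lost without Dclk1+ replicate 1 or control organoids replicate 2 (adjusted p = 0.0877 and 0.243).

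Several stem cell genes were lower in Dclk1+ cells. Of 18 listed, 16 were tested, 1 rose and 7 fell, beside 13.2% and 17.1% of all genes, and the median log2 fold change was -1.12, with 14 of the 16 below 0. In 9 of the 16 both Dclk1+ libraries lay below both control libraries, beside 37.9% of all genes. Among those that fell were the Wnt feedback gene Rnf43, with 8.18 and 1.66 CPM in Dclk1+ cells and 39.2 and 51.5 CPM in control organoids (log2 -3.38, SE 0.54, adjusted p = 0.000181, or -4.74 without Dclk1+ replicate 1 and -2.49 without Dclk1+ replicate 2), and Aqp4 with 2.73 and 4.14 CPM in Dclk1+ cells and 34.5 and 56.1 CPM in control organoids (log2 -3.64, SE 0.56, adjusted p = 0.000126). Lgr5, the stem cell receptor gene, differed between the Dclk1+ libraries more than between the groups, with 13.6 and 68.7 CPM in Dclk1+ cells and 48.5 and 40.7 CPM in control organoids (adjusted p = 0.94). Without Dclk1+ replicate 2 it was lower in Dclk1+ cells and passed (log2 -1.74, adjusted p = 0.0288), and without Dclk1+ replicate 1 the fitted difference was positive and did not pass (log2 0.60, adjusted p = 0.298). Prom1 was the 1 rise, with 278 and 162 CPM in Dclk1+ cells and 115 and 62 CPM in control organoids (log2 1.30, SE 0.35, adjusted p = 0.00998), lost without Dclk1+ replicate 1 or control organoids replicate 2 (adjusted p = 0.0997 and 0.17).

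**Figure D4:**
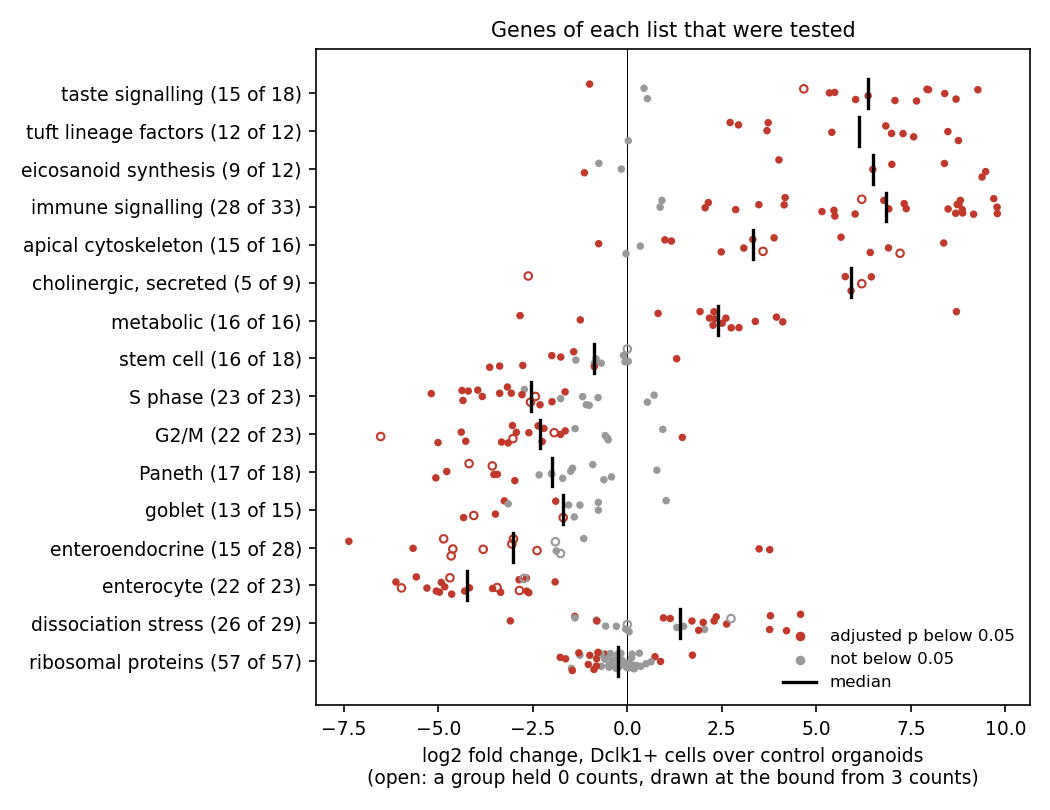
Log2 fold change of Dclk1+ cells over control organoids (x axis) for the genes tested in each of 16 lists (rows, with the number tested of the number listed). Points are genes, red below an adjusted p of 0.05 and grey otherwise, open where a group held 0 counts and drawn at the bound from 3 counts, and bars are medians; the 7 tuft lists have medians from 2.41 to 6.85 and the enterocyte list -4.24.

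Several early response genes were higher in Dclk1+ cells than in control organoids, and several were lower in Dclk1+ cells than in Lgr5+ cells, which were also sorted. Of 29 genes listed as responses to cell dissociation, 26 were tested against control organoids, 12 rose and 3 fell, beside 13.2% and 17.1% of all genes, with a median log2 fold change of 1.40. Without Dclk1+ replicate 2 the median was 0.09, with 8 rises and 4 falls, and without Dclk1+ replicate 1 or control organoids replicate 2 no gene of the list fell. Jun had 1181 and 1377 CPM in Dclk1+ cells and 97 and 88.5 CPM in control organoids (log2 3.79, SE 0.30, adjusted p = 6.88e-08), and Fosb had 64.1 and 62.9 CPM in Dclk1+ cells and 1.72 and 3.51 CPM in control organoids (log2 4.58, SE 0.54, adjusted p = 9.41e-06). In Lgr5+ cells of untreated organoids Jun had 2646 to 4899 CPM and Fosb 91.2 to 176 CPM over 4 libraries. Set against Lgr5+ cells, 2 of the 26 genes tested were higher and 7 lower in Dclk1+ cells, beside 18.9% and 19.4% of all genes. Jun was among the lower (log2 -1.50, SE 0.25, adjusted p = 0.000162). Klf4, a factor of differentiated epithelium that is also on this list, was higher than in both: it had 172 and 131 CPM in Dclk1+ cells, 6.03 to 23.4 CPM in Lgr5+ cells and 14.5 and 7.55 CPM in control organoids (log2 3.19, SE 0.39, adjusted p = 9.16e-06 against Lgr5+ cells and 3.76, SE 0.50, adjusted p = 3.01e-05 against control organoids). The 3 genes of the list that fell against control organoids were Hspa8 (log2 -0.80, SE 0.22, adjusted p = 0.0105), Jund (log2 -1.39, SE 0.40, adjusted p = 0.0144) and Myc (log2 -3.09, SE 1.07, adjusted p = 0.037, or -2.39 without Dclk1+ replicate 1 and 0 counts left in Dclk1+ cells without replicate 2). Hspa8 lost the threshold without Dclk1+ replicate 1 or control organoids replicate 2 (adjusted p = 0.0605 and 0.0875), as did Jund (0.0798 and 0.193). Myc lost it without Dclk1+ replicate 1 (0.131) and without control organoids replicate 1 or replicate 2 (0.0866 and 0.0711). The part of the sort in the comparison with control organoids was not tested.

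**Figure D5:**
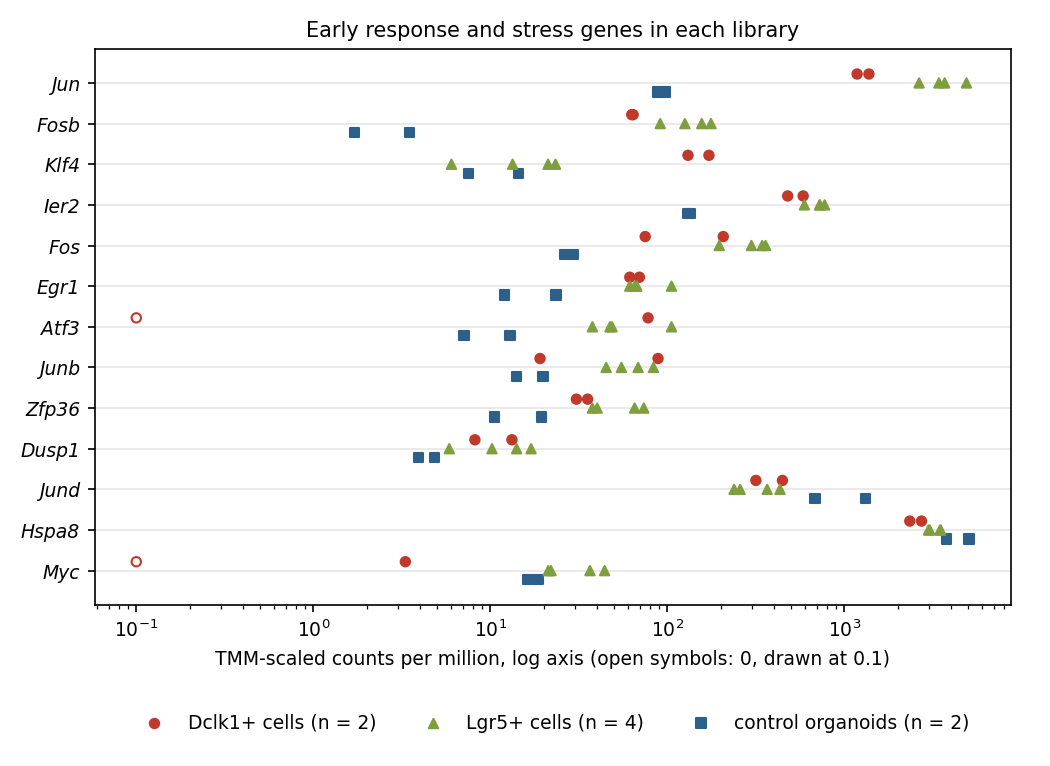
TMM-scaled CPM (log axis) of 13 early response and stress genes, 1 per row, in each library of Dclk1+ cells (circles, n = 2), Lgr5+ cells (triangles, n = 4) and control organoids (squares, n = 2); open symbols mark 0 counts and are drawn at 0.1. Jun lies at 1181 and 1377 CPM in Dclk1+ cells, 2646 to 4899 CPM in Lgr5+ cells and 97 and 88.5 CPM in control organoids.

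Genes of protein synthesis and respiration were read beside the shares of all genes, 13.2% higher and 17.1% lower. Of 57 ribosomal protein genes, 3 rose and 12 fell (7 without Dclk1+ replicate 1, and 1 rise without control organoids replicate 2), with a median log2 fold change of -0.24, beside -0.14 for all genes. Of 31 nuclear genes of oxidative phosphorylation, 3 rose and 9 fell. Of 20 ribosome biogenesis genes 10 fell and none rose, with a median of -1.33, but 5 fell without control organoids replicate 1; Npm1, nucleophosmin, had 92.7 and 121 CPM in Dclk1+ cells and 442 and 433 CPM in control organoids (log2 -2.03, SE 0.27, adjusted p = 3.57e-05). In cholesterol synthesis 21 of 22 genes were tested, 4 rose and 3 fell (1 rise without control organoids replicate 1, 2 rises without Dclk1+ replicate 1 and 1 fall without control organoids replicate 2); Hmgcs1, an early enzyme of the pathway, had 1734 and 1526 CPM in Dclk1+ cells and 292 and 461 CPM in control organoids (log2 2.11, SE 0.27, adjusted p = 2.32e-05). Of 17 targets of Erk signalling 13 were tested, Egr1 rose and 5 fell, with 2 falls without Dclk1+ replicate 1 or either control library and 8 without Dclk1+ replicate 2. Among the 5 was Etv4 with 10.9 and 29 CPM in Dclk1+ cells and 74 and 76.1 CPM in control organoids (log2 -1.85, SE 0.44, adjusted p = 0.0042, or -2.81 without Dclk1+ replicate 2). The call was lost when the 4 libraries compared were fitted alone. Scaled by library total, Etv4 had 12 to 29.7 CPM in Dclk1+ cells and 83.9 to 90.9 CPM in control organoids. Other untreated organoids had 2.75 to 6.72 CPM at 6 h and 2.09 to 5.61 CPM at 96 h, so its fall was not seen against them. Of 16 Notch pathway genes 9 were tested and Jag2, a ligand gene, and Notch1, a receptor gene, rose. Jag2 had 125 and 20.7 CPM in Dclk1+ cells and 6.37 and 4.05 CPM in control organoids (log2 3.77, SE 0.86, adjusted p = 0.00324, or 1.96 without Dclk1+ replicate 1 and 4.54 without Dclk1+ replicate 2), and the call was lost without Dclk1+ replicate 1 (adjusted p = 0.094). Notch1 had 90 and 37.3 CPM in Dclk1+ cells and 20.3 and 14.8 CPM in control organoids (log2 1.83, SE 0.51, adjusted p = 0.0116, or 1.06 without Dclk1+ replicate 1), and its call was lost without Dclk1+ replicate 1 or control organoids replicate 2 (adjusted p = 0.146 and 0.111). Ptma, which encodes prothymosin alpha, had 24276 and 33256 CPM in Dclk1+ cells and 22470.4 and 25107 CPM in control organoids and did not pass (adjusted p = 0.278).

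The 10 largest falls among genes with at least 20 CPM all had 0 counts in the Dclk1+ libraries, so that their folds are lower bounds. They were Mki67, Ctrb1, Treh, Reg3a, Cyp2b10, Nqo1, Rdh7, Brpf3, Mylk and Mir692-1. Ctrb1, a chymotrypsinogen gene, had 78.2 and 159.9 CPM in control organoids and was at least 75.7-fold lower. Other untreated organoids had 1.49 to 3.29 CPM of Ctrb1 at 6 h and 0.701 to 2.79 CPM at 96 h, scaled by library total, so that its size belongs to these control libraries. Reg3a, an antimicrobial lectin gene, had 113 and 68 CPM in control organoids and was at least 59.3-fold lower. Mir692-1 rested on 1 control library, with 1.23 and 100.3 CPM in control organoids, and lost the threshold without control organoids replicate 2 (log2 -4.12, adjusted p = 0.315) and without Dclk1+ replicate 2 (adjusted p = 0.0678). In all 275 of the genes that fell had 0 counts in both Dclk1+ libraries, the shallower pair.

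The named genes that passed were also read against the other untreated whole organoids of the series, a comparison chosen after seeing the data, scaled by library total only and with no test, since those libraries lie in other tables. Many of the named genes were chosen for a small adjusted p or a large size in the same Dclk1+ libraries. The share over all genes was not taken, so the counts describe the named genes only. Of 67 rises, 63 had both Dclk1+ libraries above all 3 organoid libraries at 6 h and all 3 at 96 h. The other 4 were Sox9, Sucnr1, Kif11 and Cacna1a. Kif11 had 79.6 to 119.6 CPM in Dclk1+ cells, 74 to 88.1 CPM at 6 h and 55.8 to 84.9 CPM at 96 h, and Cacna1a had 19.5 to 67.3 CPM in Dclk1+ cells, 20.6 to 23.9 CPM at 6 h and 19.6 to 23.9 CPM at 96 h. Both genes thus overlapped with the other sets. Of 37 falls, 30 had both Dclk1+ libraries below all 6 of those libraries. In Itpr3, Hspa8 and Etv4 the Dclk1+ libraries were above all 6: Hspa8 had 2568 to 2792 CPM in Dclk1+ cells, 1518 to 1897 CPM at 6 h and 822 to 920.4 CPM at 96 h, and Etv4 had 12 to 29.7 CPM in Dclk1+ cells, 2.75 to 6.72 CPM at 6 h and 2.09 to 5.61 CPM at 96 h. Actg1, Apoa4, Ache and Mir692-1 overlapped with at least 1 of these sets.

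Against Lgr5+ cells, where both sides were sorted, the tuft genes were higher in Dclk1+ cells again. The comparison shares the Dclk1+ libraries with the one above, so it is no independent repeat. Lgr5 itself had 32.6 to 58.3 CPM in Lgr5+ cells, 13.6 and 68.7 CPM in Dclk1+ cells and 48.5 and 40.7 CPM in control organoids. It did not pass the edgeR test between Dclk1+ and Lgr5+ cells (log2 -0.09, adjusted p = 0.896). The name Lgr5+ thus rests on the sort label, and Lgr5 RNA was not enriched over control organoids in these libraries. Ptma took 15.8% to 22.3% of the counts in the Lgr5+ libraries and 2.66% and 3.40% in the Dclk1+ libraries. Leaving it out changed the count of calls from 3953 to 3956. The calls higher in Dclk1+ cells went from 1951 to 1886 and those lower from 2002 to 2070, and 3884 calls were kept with their sign. Of 10325 genes 38.3% passed, 18.9% higher and 19.4% lower in Dclk1+ cells. Of the 96 tested genes of the tuft signature 95 rose and none fell, with a median log2 fold change of 5.01 (-0.06 over all genes). Here too 8 of the 96 passed the low-count filter only through Dclk1+ libraries, so the filter favoured a rise in them. The count of rises against Lgr5+ cells without those 8 was not taken. Dclk1 had 792 and 663 CPM in Dclk1+ cells and 3.02 to 10.2 CPM in Lgr5+ cells, and Trpm5 had 827 and 856 CPM in Dclk1+ cells and 4.02 to 13.4 CPM in Lgr5+ cells (log2 6.78, SE 0.32, adjusted p = 6.68e-11). Pla2g4a had 123 and 125 CPM in Dclk1+ cells and 50.5 to 60.9 CPM in Lgr5+ cells (log2 1.17, SE 0.27, adjusted p = 0.00245). Adh1 had 12506 and 11229 CPM in Dclk1+ cells and 239 to 931 CPM in Lgr5+ cells (log2 4.69, SE 0.21, adjusted p = 6.5e-11). Of the S phase list 20 of 23 genes were lower in Dclk1+ cells, and of the G2/M list 17 of 22 were lower and 1 higher. Enterocyte genes gave 2 higher and 6 lower of 22, and Paneth genes 1 lower of 17.

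Dclk1+ cells of EGF-inhibited organoids were set against Dclk1+ cells of untreated organoids, where 3.34% of the genes tested passed, 1.1% higher and 2.24% lower. Of the 96 tested genes of the tuft signature 1 was higher and 3 were lower, a share near that of all genes, and 92 did not pass, which does not show that they were equal. Trpm5 had 1297 and 1288 CPM in Dclk1+ cells of EGF-inhibited organoids and 827 and 856 CPM in Dclk1+ cells of untreated organoids, and Il25 had 49.5 and 25.9 CPM in Dclk1+ cells of EGF-inhibited organoids and 13.6 and 37.3 CPM in those of untreated organoids, with no test passed (adjusted p = 0.273 and 0.774). Adh1 was lower, with 4539.7 and 5524 CPM in Dclk1+ cells of EGF-inhibited organoids and 12506 and 11229 CPM in Dclk1+ cells of untreated organoids (log2 -1.24, adjusted p = 0.0107).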

How the data were processed

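RNA was sequenced by CEL-seq from sorted cells and whole organoids. The authors deposited whole-number read counts per gene, with no normalization; they aligned reads with BWA 0.6.2-r126 to mm10 per the submitters' processing notes, and the counting program and its annotation are not given in the sources used here. The tables list no spike-in counts and no mitochondrially encoded genes, so neither could be used to judge RNA quality.

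Sorted-cell and control organoid counts were joined by gene symbol, a gene listed in one kind of file only counting as 0 in the other. Genes with at least 10 counts at the median library size (6.542 CPM) in 2 libraries were kept (filterByExpr), which left 10325. The fit used edgeR 4.0.16 in R 4.3.3 with TMM scaling and the quasi-likelihood test over the 14 libraries of the sorted set, whose 7 groups share 1 estimate of the spread, and Benjamini-Hochberg adjustment at 0.05. Total counts per library ran from 668893 to 3599554. The fit was also run on simulated counts, in which far fewer genes changed, and by smaller folds, than in these data. That run thus does not show how the fit performs under the conditions of these data. DESeq2 1.42.0 was an alternative. Summaries and figures used Python 3.11.15 with pandas 2.3.3, NumPy 2.4.6, SciPy 1.17.1 and matplotlib 3.10.9.

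Count ratios with exact 95% intervals, and bounds from a floor of 3 counts over a group of libraries, are given for genes with few counts and cover counting error only. Gene positions are those of GENCODE M21 and promoters those of RefSeq (GRCm38.p6). Named genes were fixed markers, up to 6 genes of smallest adjusted p per tuft list and up to 4 per other list, tuft genes under the filter, passing genes that went against their list, and the 10 largest non-overlapping rises and falls among genes whose higher group reached 20 CPM; a few genes that this rule names are not reported here. Members and lists were chosen with earlier results of these data known, and other named genes for their role after their values were seen. The sources used here give no pairing of libraries between groups. Replicate numbers are those of the sample titles; the deposited files of the sorted cells and control organoids carry them the other way round in every group.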

Additional observations from a re-analysis of the deposited data

How the results depend on the processing

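The count of genes past the threshold between Dclk1+ cells and control organoids was 3130. It was 1781 when the 4 libraries compared were fitted alone and ran from 1769 to 3082 when each of the 4 was left out in turn. The other settings gave 2656 to 3285 (RLE scaling, no filter, counts thinned to the smallest library, Ptma left out, DESeq2, and genes listed in both kinds of file only, the last chosen after seeing the data). Against Lgr5+ cells every setting tried gave 3157 to 4142 genes, within 1.5 times of 3953. With the replicate number as a block the counts were 3090 against control organoids and 3863 against Lgr5+ cells; deviations of same-numbered Dclk1+ and control libraries correlated with r = -0.005, so the numbers were not taken to pair the samples. The median log2 fold change of all genes was -0.56 with no filter and -0.44 without Dclk1+ replicate 2. Of 116 named genes tested against control organoids, 91 kept direction and call in every setting. A sign change occurred for 4 (Ascl2, Birc5, Lgr5 and Ptma), none of them called. Ascl2 was -0.05 with no filter, -0.01 without Ptma and from -0.12 to 0.13 with 1 library left out. Lgr5 was 0.02 with RLE scaling and from -1.74 to 0.60 with 1 library left out. With 1 library left out Birc5 ran from -4.68 to 0.29, Ptma from 0.00 to 0.47 and Sucnr1 from 0.00, where no count is left, to 7.89. Fitting the 4 libraries alone lost 13 calls of named genes (Actg1, Etv4, Fcgbp, Hspa8, Itpr3, Jund, Kif11, Muc2, Myc, Notch1, Prom1, Ptges3 and Top2a), and the falls numbered 4 of the Paneth, 2 of the goblet, 3 of the stem, 8 of the G2/M, 4 of the ribosome biogenesis and 1 of the Erk lists; the cause was not tested. Depth limits the Dclk1+ side: 275 of the genes that fell had 0 counts there, and a level under about 3 counts in the 668893 of the shallower library cannot be told from 0.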
